A study of Homo sapiens with 8 samples.

Results

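Gene expression in the colon cancer line DKS-5 was compared with that in the colon cancer line DKO-3 under normoxia (21% O2), using the 4 normoxia arrays of a series of 8. By its label DKS-5 carries mutant K-ras, whereas the label of DKO-3 reads K-ras knockout and wild-type. Each line has 2 normoxia samples, and the other 4 arrays hold the same lines after 12 h at 1% O2. Both lines were grown in standard media, and total RNA was amplified, labelled with biotin and hybridised to an array that measures each gene with 1 or more probe sets. No other allele or agent distinguishes the groups in the labels. Each genotype is represented by 1 line, so K-ras status and any other property of the line cannot be told apart. Whether the 2 samples of a line were grown separately is not stated. Each p-value is therefore relative to the spread among these arrays only, and that spread may be technical.

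K-ras is a small GTPase that, when bound to GTP, activates RAF kinases, which phosphorylate MEK, which in turn phosphorylates ERK. ERK then acts on kinases of the RSK family and on transcription factors of the ETS and AP-1 families, and it induces its own inhibitors, the Sprouty proteins and dual-specificity phosphatases. Activating K-ras mutations are among the most frequent lesions of colon cancer. Both lines are known as sublines of DLD-1, a colon cancer line with a mutant and a wild-type K-ras allele.

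A gene was taken at its brightest probe set. Of 19775 genes on the array, 12735 exceeded a scaled signal of 13.8 on average and were tested with limma on log2(signal + 16), a scale on which the differences of dim genes are understated. The lines differed at 324 genes at an adjusted p under 0.05 (2.54% of the genes tested). DKS-5 was higher at 90 of them (0.707%) and lower at 234 (1.84%). Among the called genes, 277 differed more than 2-fold and 47 more than 4-fold. More than 1 probe set lay above the filter in 160 of them. In a fit over all probe sets, each of these passed in 32 of the 160 genes. All had the same sign in 151, and 9 held a probe set of the opposite sign. The median standard error of a difference was 0.25 on the log2 scale, and the smallest called difference was 0.65. All 324 called genes had DKS-5 arrays that did not overlap the DKO-3 arrays, which was also true of 43.7% of all genes tested. The median difference over all genes tested was 0.0059 on the log2 scale.

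**Figure D1:**
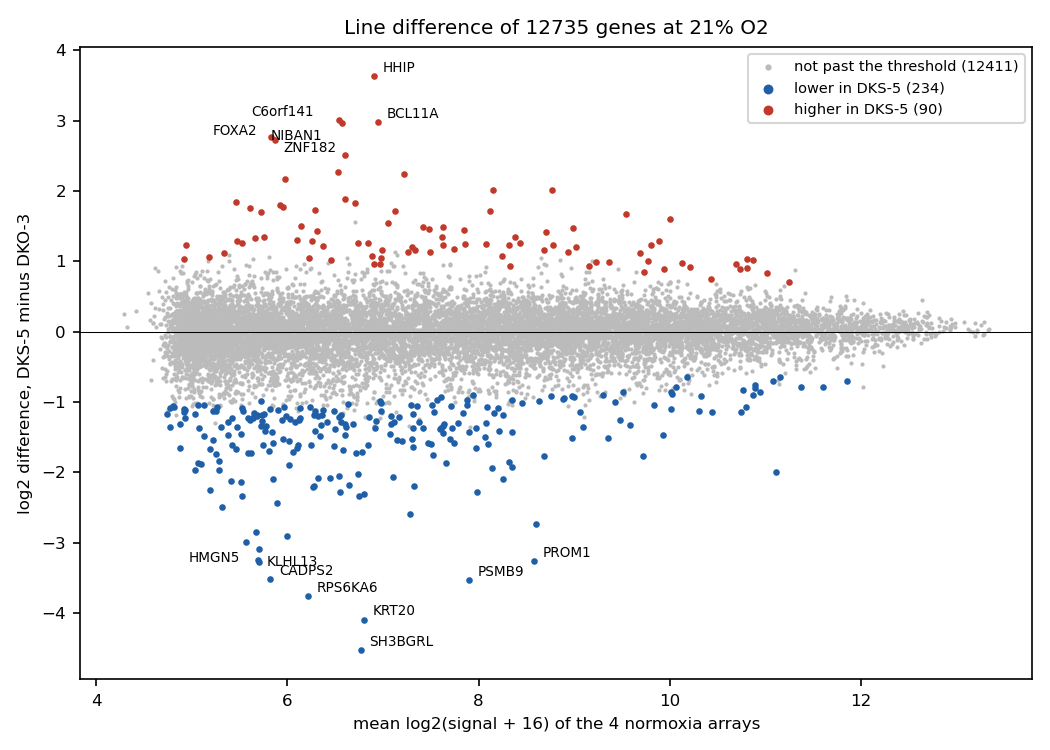
Each point is 1 of 12735 genes, with its mean log2(signal + 16) over the 4 normoxia arrays on the x axis and the log2 difference, DKS-5 minus DKO-3, on the y axis. The 90 genes called higher are red and the 234 called lower are blue, and the differences reach further down, to -4.53 for SH3BGRL, than up, to 3.64 for HHIP.

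The number of calls rested on having both samples of each line. It was 127 without DKS-5 normoxia sample 1, 119 without DKS-5 sample 2, 146 without DKO-3 sample 1 and 161 without DKO-3 sample 2, against 324 with all. The called genes all kept their direction in these fits, as they had to, since the lines did not overlap at any of them. Of the 30 largest differences described next, 28 stayed called under each of the 19 alternatives in which they were tested. The exceptions, CR2 and CALCA, are given with their values.

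The start regions of the 2 genes that rose most and the 2 that fell most on this scale are shown because ERK acts through AP-1 and ETS factors, whose core motifs were searched there. Each runs from 250 bases before to 50 after the start (RefSeq, GRCh38.p14, written 5′ to 3′ along the gene's strand). Capitals mark a match to the AP-1 core TGANTCA or the ETS core CCGGAA on either strand; the searched letters of these cores do not overlap in these 4 sequences.
HHIP (chr4:144645906-144646205, plus strand): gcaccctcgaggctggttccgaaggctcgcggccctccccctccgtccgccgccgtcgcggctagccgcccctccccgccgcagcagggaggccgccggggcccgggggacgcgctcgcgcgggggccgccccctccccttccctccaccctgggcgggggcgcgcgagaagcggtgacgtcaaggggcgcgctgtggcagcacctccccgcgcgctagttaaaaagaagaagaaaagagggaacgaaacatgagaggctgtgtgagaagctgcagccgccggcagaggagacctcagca
C6orf141 (chr6:49550418-49550717, plus strand): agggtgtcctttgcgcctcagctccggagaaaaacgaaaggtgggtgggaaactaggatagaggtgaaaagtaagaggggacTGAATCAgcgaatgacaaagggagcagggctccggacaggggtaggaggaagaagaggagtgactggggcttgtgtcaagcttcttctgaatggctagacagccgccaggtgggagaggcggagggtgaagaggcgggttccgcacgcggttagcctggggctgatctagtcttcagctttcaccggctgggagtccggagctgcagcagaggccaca
SH3BGRL (chrX:81201852-81202151, plus strand): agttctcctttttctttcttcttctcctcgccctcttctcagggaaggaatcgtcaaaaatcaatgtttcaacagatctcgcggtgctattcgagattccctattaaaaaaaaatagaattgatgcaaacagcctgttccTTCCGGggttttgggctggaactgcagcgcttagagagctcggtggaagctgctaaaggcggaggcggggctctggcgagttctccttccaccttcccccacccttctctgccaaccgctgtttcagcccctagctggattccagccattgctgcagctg
KRT20 (chr17:40885193-40885492, minus strand): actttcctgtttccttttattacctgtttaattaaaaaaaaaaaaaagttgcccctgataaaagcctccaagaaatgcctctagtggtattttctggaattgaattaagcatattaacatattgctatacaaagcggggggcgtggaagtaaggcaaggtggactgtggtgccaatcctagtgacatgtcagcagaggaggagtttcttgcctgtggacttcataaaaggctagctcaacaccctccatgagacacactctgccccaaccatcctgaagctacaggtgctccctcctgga
The region of C6orf141 holds an AP-1 match, that of SH3BGRL an ETS match on the reverse strand, and those of HHIP and KRT20 hold neither. A start region was at hand for 75 of the 90 genes called higher, 190 of the 234 called lower and 10344 of the genes tested. An AP-1 match lay in 9.33% of the higher, 6.32% of the lower and 4.64% of all tested genes' regions, and in 7.76% of the 27305 regions of the whole table. An ETS match lay in 16% of the higher, 18.4% of the lower and 29.1% of all tested genes' regions, against 17.6% of the whole table. Among called genes with an AP-1 match were the higher TDO2, F3 and DOCK4 and the lower CARD6, CPA4, LCN2 and ENO2. Of these, F3, DOCK4 and CPA4 were named after their values were seen. These shares describe letters in a window and were not tested.

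The gene that rose most in DKS-5 was HHIP, which encodes a membrane protein that binds and sequesters hedgehog ligands. HHIP signal was 361 and 459 in the DKS-5 samples and 14.0 and 22.4 in the DKO-3 samples. Its difference was 3.64 ± 0.29 on the log2 scale (SE, adjusted p = 3.02e-06). This is 12.5-fold in signal + 16, which is less than the fold of the signals themselves. All 3 HHIP probe sets above the filter were past the threshold in the same direction. C6orf141 signal was 207 and 295 against 17.9 and 15.7, a difference of 3.01 ± 0.25 (adjusted p = 4.86e-06). BCL11A, a zinc-finger repressor known from globin switching and B-cell development, stood at 284 and 386 against 26.4 and 29.4. Its difference of 2.98 ± 0.26 (adjusted p = 5.67e-06) was called at all 4 of its probe sets. In each of these genes the lower DKS-5 sample was several times the higher DKO-3 sample.

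NIBAN1, a stress-responsive protein, rose to 257 and 242 from 13.1 and 23.6 (2.97 on the log2 scale, adjusted p = 4.86e-06). FOXA2, a pioneer transcription factor of endoderm, was at 131 and 132 in DKS-5 and at 4.18 and 7.42, below the filter level, in DKO-3 (2.76, adjusted p = 7.04e-06). The X-linked zinc-finger gene ZNF182 was at 127 and 144 against 0.188 and 16.1 (2.73, adjusted p = 9.21e-05). Here the samples of DKO-3 lay far apart, but both lay below DKS-5.

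Enzymes and signalling genes followed among the 15 largest rises. TDO2, which opens the ring of tryptophan in the kynurenine pathway, was at 227 and 208 against 31.4 and 19.0 (2.52, adjusted p = 9.21e-05). PLA2G4A, the cytosolic phospholipase that releases arachidonic acid, was at 156 and 225 against 18.1 and 35.8 (2.28, adjusted p = 0.000186). SESN3, a sestrin that restrains mTORC1, was at 505 and 609 against 135 and 114 (2.02, adjusted p = 0.000122). TNFRSF19, a TNF-receptor family member known as a Wnt target, is given with the Wnt genes. The remaining members were SESTD1 (2.24), NPTX2, a neuronal pentraxin (2.17), PCOLCE2, a procollagen-processing enhancer (1.88), the myosin heavy chain MYH7B (1.84) and CR2, the complement receptor (1.84). CR2 lost its call without DKS-5 sample 2 (adjusted p = 0.0695) and without DKO-3 sample 1 (adjusted p = 0.0543).

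The lowest difference on the log2(signal + 16) scale was that of SH3BGRL, an X-linked gene for a small thioredoxin-fold protein with an SH3-binding motif. Its signal was 5.33 and 8.01 in DKS-5, below the filter level, and 524 and 491 in DKO-3. The difference was -4.53 ± 0.26 on the log2 scale (23.1-fold, adjusted p = 2.09e-07), and both of its probe sets were past the threshold. Its fold and rank depend on the added constant: with 1 in place of 16 its difference was -6.07, and CADPS2 (-6.69), HMGN5 (-6.34) and KLHL13 (-6.30) lay lower. KRT20, the keratin of differentiated intestinal epithelium, was at 7.18 and 15.5 against 445 and 444 (-4.09 ± 0.26, adjusted p = 5.15e-07). RPS6KA6, which encodes RSK4, an X-linked member of the RSK kinases, was at 8.17 and 0.805 against 319 and 207 (-3.76 ± 0.28, adjusted p = 2.13e-06). In DKS-5 these genes were below or just above the filter level, and in DKO-3 they were well above it.

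PSMB9, a catalytic subunit of the immunoproteasome, and PROM1, the CD133 antigen of colon stem and cancer cells, also fell. PSMB9 was at 56.3 and 52.4 against 642 and 988 (-3.53, adjusted p = 1.98e-06). PROM1 was at 94.8 and 122 against 1302 and 1051 (-3.26, adjusted p = 2.13e-06). Both remained above the filter level in DKS-5.

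CADPS2, a priming factor for dense-core vesicle exocytosis, was at 0.931 and 0.514 against 201 and 153 (-3.52, adjusted p = 3.21e-06). HMGN5, a nucleosome-binding protein, and KLHL13, a substrate adaptor of a CUL3 ubiquitin ligase, differed by -3.27 and -3.24, and PBDC1 by -2.73. HMGN5, KLHL13 and PBDC1 are, like SH3BGRL and RPS6KA6, on the X chromosome. The RNA-binding splicing regulator CELF2 differed by -3.09, the long non-coding LINC01133 by -2.90, APOL3 by -2.85, HOXD10, a posterior homeobox gene, by -2.59 and CARD6 by -2.49. CALCA, the gene of calcitonin and CGRP, was at 0.945 and 0.599 against 84.6 and 161 (-2.99, adjusted p = 1.59e-05). When 1 in place of 16 was added before the log, another of its 4 probe sets became the brightest and took its place, and the difference was -0.60 and not called (adjusted p = 0.711, the largest over the alternatives). In 45 of the 234 lower genes both DKS-5 samples were below the filter level of 13.8, so the size of those differences depends on the added constant. The same held for DKO-3 in 6 of the 90 higher genes.

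**Figure D2:**
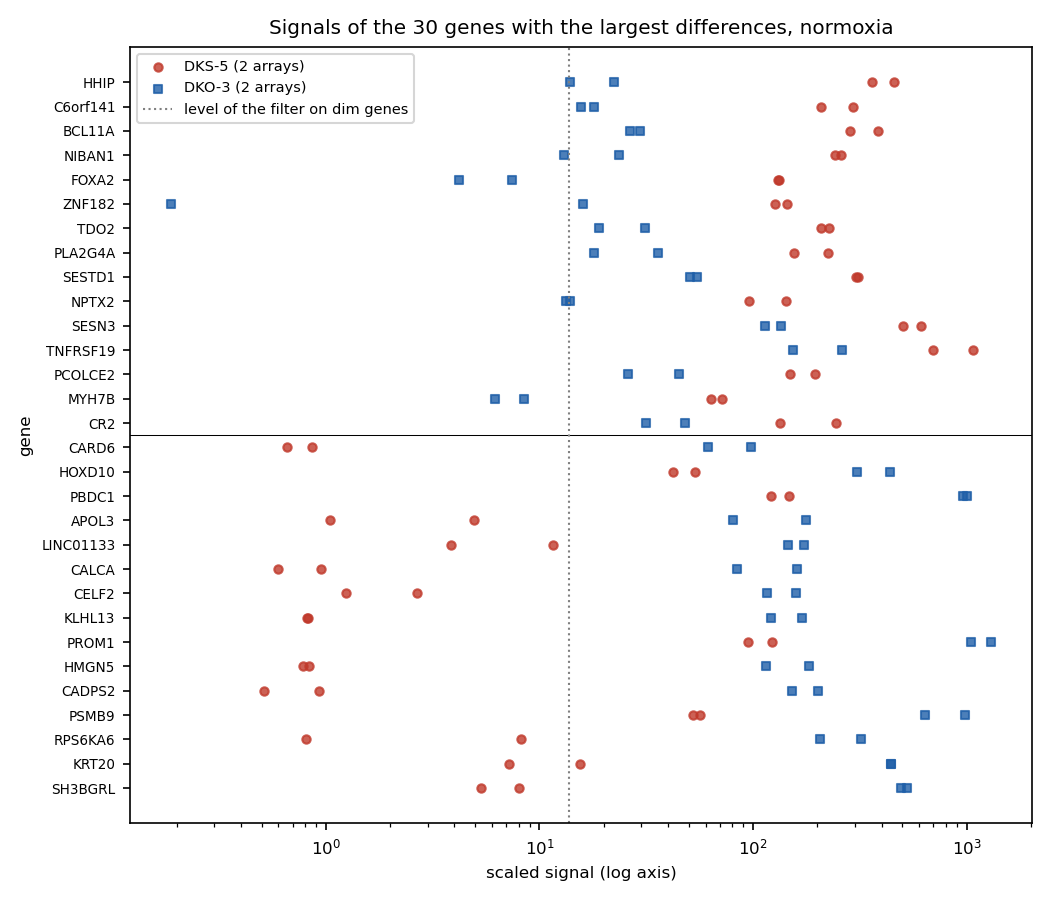
Scaled signal (log axis) in each of the 4 normoxia samples for the 15 genes that rose most and the 15 that fell most in DKS-5, 1 gene per row, with DKS-5 as red circles and DKO-3 as blue squares. The dotted line marks the filter level of 13.8, and in the lower block most DKS-5 circles lie to its left, with exceptions such as PROM1, PSMB9 and PBDC1.

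The tested genes of the cascade itself did not pass. Of 22 genes listed, 17 had a probe set under their symbol and were tested, and the others were not analysed. None of 17 tested genes of the RAS-RAF-MEK-ERK list passed in limma; 3 had an unadjusted p under 0.05, all with lower values in DKS-5, and the median difference was -0.06. MAP2K1, which encodes MEK1, was at 2257 and 1927 against 2880 and 2571 (-0.38, adjusted p = 0.402). RRAS2 was at 1197 and 1077 against 1629 and 1732 (-0.56, adjusted p = 0.178). GRB2, the adaptor that couples receptors to RAS, was at 275 and 333 against 206 and 221 (0.47, adjusted p = 0.461). MRAS, a RAS-related GTPase with the lowest difference of the list, was at 11.5 and 10.1 against 23.6 and 52.3 (-0.96, adjusted p = 0.159). The lines did not overlap in these 4 genes, which are among 8 of the 17 without overlap; 43.7% of all genes tested had none.

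ERK feedback and transcriptional output genes gave 1 call among 25 tested, against 2.54% of all genes tested, with a median of -0.07. ETV1, an ETS transcription factor, was at 122 and 86.5 against 20.3 and 31.9 (1.51 ± 0.27, adjusted p = 0.0049). Of its 3 probe sets above the filter 1 passed in a fit over all probe sets, and the lowest difference was 0.19. ETV1 lost its call when all probe sets were averaged and without the filter on dim genes. Its call was lost without DKS-5 sample 1 (adjusted p = 0.0931) and without DKO-3 sample 1 (0.087), within a highest adjusted p of 0.159 over all alternatives. The AP-1 subunit JUN was at 304 and 180 against 421 and 448 (-0.85, adjusted p = 0.163), and the immediate-early gene IER3 at 4914 and 4188 against 2980 and 3656 (0.46, adjusted p = 0.194). In the EGF receptor family none of 9 tested genes passed in limma and 2 had an unadjusted p under 0.05; the nearest was the ligand BTC, at 49.4 and 75.2 against 134 and 127 (-0.92, adjusted p = 0.0692).

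Of 17 PI3K and insulin/IGF genes, 1 rose, against 0.707% of all genes tested. GRB10, an adaptor that binds and restrains the insulin and IGF1 receptors, was at 653 and 679 against 261 and 218 (1.42 ± 0.25, adjusted p = 0.00428). Its adjusted p was 0.0509 without DKS-5 sample 1, 0.0675 without DKS-5 sample 2 and 0.0591 without DKO-3 sample 2. IGFBP3, a carrier of IGFs, was at 14.6 and 14.0 against 40.8 and 36.4 (-0.85, adjusted p = 0.0772).

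Across 36 gene lists, 636 genes were tested and 49 were called (7.7%, against 2.54% of all genes tested), 17 higher (2.67% against 0.707%) and 32 lower (5.03% against 1.84%) in DKS-5. The lists were chosen with earlier results of these data known, so the larger share is not read as a result. The same shares of all genes tested, with 49.2% of differences below 0, are the background to the counts of each list. Of the 49, 20 kept the call under each alternative in which they were tested, and 29 lost it under at least 1. In 13 of the lists no gene was called (215 genes, of which 31 had an unadjusted p under 0.05 in limma, with differences between -0.97 and 0.82).

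**Figure D3:**
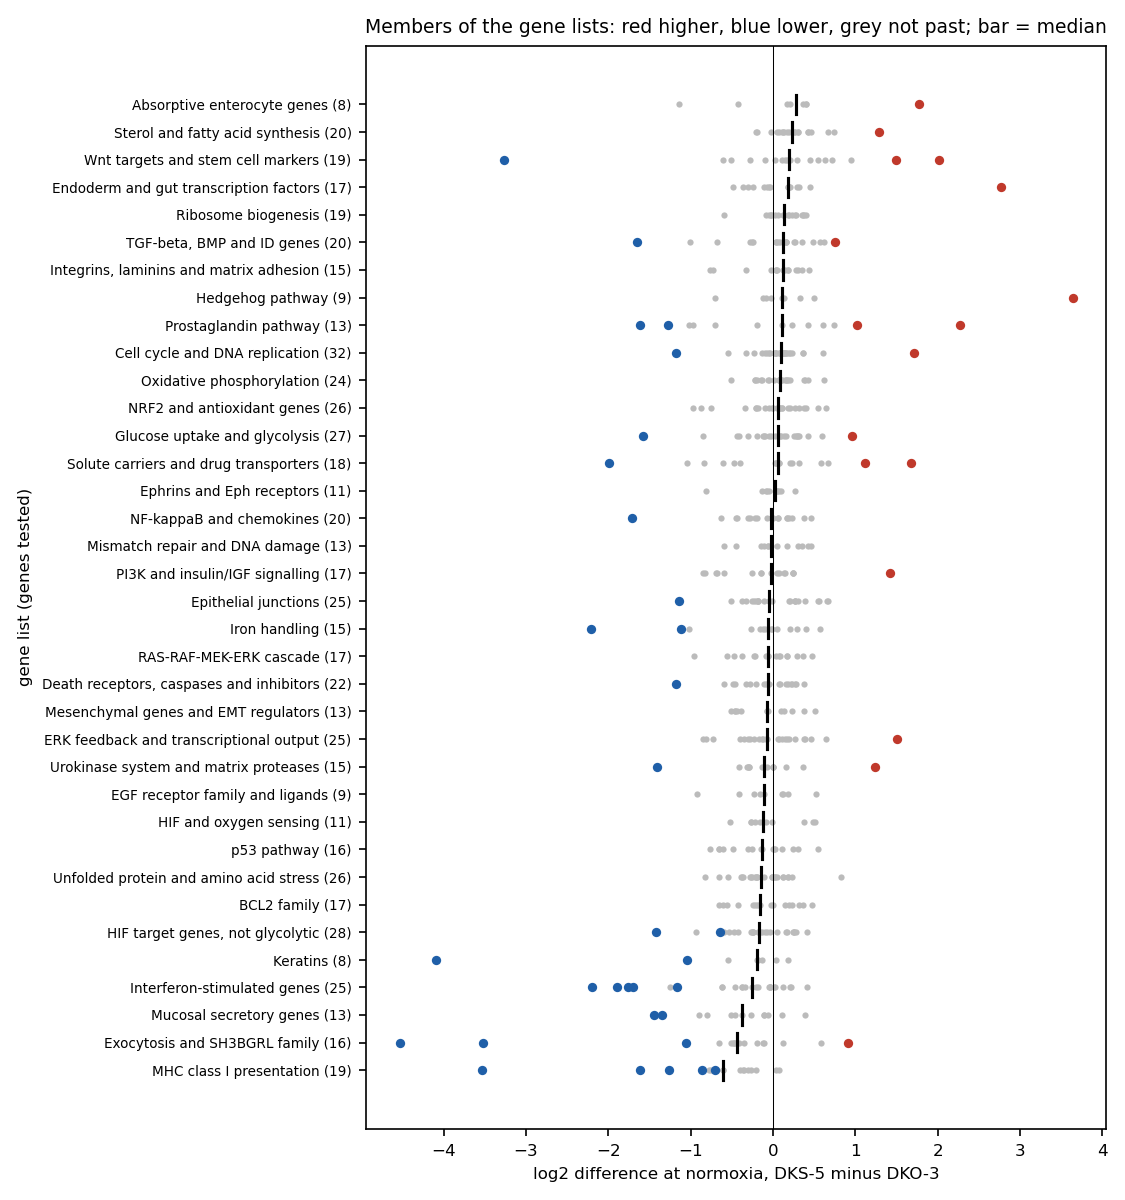
Each row is a gene list with the number of its genes tested, each point a gene's log2 difference at normoxia (red called higher, blue called lower, grey not past the threshold), and each black bar the list's median. The lowest medians are those of MHC class I presentation (-0.61), exocytosis with the SH3BGRL family (-0.44) and mucosal secretory genes (-0.37).

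MHC class I presentation, by which cells display peptides cut by the proteasome to T cells, had 5 of 19 tested genes lower and none higher. Over all genes tested 1.84% were called lower. Of the 19 differences 17 were below 0, against 49.2% of all genes tested, with a median of -0.61 against 0.0059. Beside PSMB9, NLRC5, the transactivator of MHC class I genes, was at 15.3 and 14.1 against 83.3 and 72.4 (-1.61 ± 0.27, adjusted p = 0.00329). NLRC5 and PSMB9 kept their calls under each alternative in which they were tested.

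The MHC class I molecules differed by less. HLA-B was at 379 and 520 against 810 and 1454 (-1.26, adjusted p = 0.0133), and HLA-C at 1238 and 1703 against 2509 and 2780 (-0.86, adjusted p = 0.0268). B2M, their light chain, named here after its values were seen, was at 3006 and 2764 against 4956 and 4469 (-0.70, adjusted p = 0.0346). HLA genes are near-identical copies, and probe sets may not tell them apart. HLA-B lost its call without DKS-5 sample 1 (adjusted p = 0.202) or DKO-3 sample 2 (0.21), HLA-C on leaving out any normoxia sample but DKS-5 sample 2 (up to 0.408), and B2M on leaving out any 1 of the 4 (up to 0.341). The list held 2 calls without DKS-5 sample 1 or DKO-3 sample 2, 4 without DKS-5 sample 2 and 3 without DKO-3 sample 1.

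Interferon-stimulated genes, which are switched on by interferon through STAT and IRF factors, had 5 of 25 tested genes lower and none higher, with a median of -0.26 and 19 differences below 0. Over all genes tested 1.84% were called lower and 49.2% had a difference below 0. The antiviral IFIT genes, whose products bind foreign RNA, were among them. IFIT1 was at 17.6 and 17.7 against 109 and 108 (-1.89, adjusted p = 0.000625), IFIT2 at 9.49 and 35.7 against 176 and 129 (-2.20, adjusted p = 0.00128), and IFIT3 at 13.4 and 16.6 against 96.8 and 73.7 (-1.70, adjusted p = 0.000877). SAMD9, an antiviral and growth-restraining protein, was at 450 and 435 against 1616 and 1469 (-1.76 ± 0.20, adjusted p = 0.000125). These 4 kept their calls under each alternative in which they were tested. OAS2, named after its values were seen, was at 11.7 and 1.32 against 36.0 and 30.5 (-1.17, adjusted p = 0.0357) and lost its call under 8 of 17 alternatives, among them without DKS-5 sample 2 (adjusted p = 0.475). Other members did not pass, among them IFI6, with a difference of -1.25 (adjusted p = 0.162), and MX1, with 0.41 (adjusted p = 0.64). IFI6 and MX1 were named after their values were seen.

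Keratins and mucosal genes of the gut were next. Of 8 keratins, KRT20 and KRT19 fell and none rose, where 1.84% of all genes tested were called lower. KRT19, a keratin of simple epithelia, was at 571 and 671 against 951 and 1744 (-1.04, adjusted p = 0.0312). It lost its call without DKS-5 sample 1 (adjusted p = 0.269), DKS-5 sample 2 (0.123) or DKO-3 sample 2 (0.379), the last being the highest over all alternatives. KRT18 was at 3623 and 4183 against 3813 and 4808 (-0.14, adjusted p = 0.895). In a bulk sample, fewer cells that make a transcript and less of it per cell cannot be told apart.

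Of 13 mucosal secretory genes 2 fell, against 1.84% of all genes tested, and 11 differences were below 0, against 49.2%. REG4, a lectin of enteroendocrine and goblet cells, was at 50.5 and 83.6 against 168 and 253 (-1.45, adjusted p = 0.0247). The trefoil factor TFF2 was at 0.542 and 1.72 against 24.7 and 30.9 (-1.35, adjusted p = 0.00856). REG4 lost its call without DKS-5 sample 1 (0.28, the highest adjusted p over the alternatives), DKO-3 sample 1 (0.0557) or DKO-3 sample 2 (0.245), and TFF2 on leaving out any normoxia sample but DKO-3 sample 1 (up to 0.0959). Of 8 absorptive genes, VIL1, the actin-bundling protein of the brush border, rose, at 103 and 93.2 against 17.4 and 17.6 (1.77 ± 0.25, adjusted p = 0.000917). Its call was lost when all probe sets were averaged (adjusted p = 0.0585). Of its 3 probe sets above the filter 2 passed, and the lowest difference was -0.22. FOXA2 was the 1 call among 17 gut transcription factors. Over all genes tested 0.707% were called higher.

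Wnt target and stem cell genes had 2 rises and 1 fall among 19 tested, against 0.707% and 1.84% of all genes tested. TNFRSF19 was at 697 and 1072 against 262 and 153 (2.02 ± 0.28, adjusted p = 0.000659). LGR5, the R-spondin receptor that marks crypt stem cells, was at 235 and 309 against 109 and 66.6 (1.49 ± 0.30, adjusted p = 0.0119). The adjusted p of LGR5 was 0.167 without DKS-5 sample 2 or without DKO-3 sample 2. PROM1, also a stem cell marker, went the other way, as given above.

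HHIP was the 1 call among 9 hedgehog genes, against 2.54% of all genes tested. The receptor PTCH1 stood at 986 and 1226 against 2052 and 1591 (-0.71, adjusted p = 0.072). In the TGF-beta and BMP list, 1 of 20 genes rose and 1 fell, against 0.707% and 1.84% of all genes tested. BMP2, a secreted ligand, was at 21.2 and 24.3 against 104 and 108 (-1.65 ± 0.26, adjusted p = 0.00187). TGFBR2, the TGF-beta type II receptor, was at 1664 and 1914 against 1103 and 998 (0.76 ± 0.19, adjusted p = 0.0429), a call lost on leaving out any 1 of the 4 normoxia samples (adjusted p 0.15 to 0.478). BMP2 kept its call under each alternative in which it was tested.

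The prostaglandin pathway turns arachidonic acid into prostaglandins through cyclooxygenases. It had 2 rises and 2 falls among 13 tested genes, against 0.707% and 1.84% of all genes tested. PLA2G4A rose, as above, and so did PTGS2, the inducible cyclooxygenase, at 95.1 and 125 against 38.1 and 54.4 (1.02, adjusted p = 0.0457). PTGS1, the constitutive cyclooxygenase, was at 29.4 and 18.1 against 165 and 64.7 (-1.62, adjusted p = 0.0238). PTGER2, a receptor of prostaglandin E2, was at 36.5 and 41.2 against 142 and 96.3 (-1.28, adjusted p = 0.0119). At their brightest probe sets the cyclooxygenase genes differed in opposite directions. The other PTGS2 probe set above the filter differed by -0.036, and neither passed in a fit over all probe sets. PTGS2 lost its call on leaving out any 1 of the 4 normoxia samples (adjusted p 0.0861 to 0.446), and PTGS1 and PTGER2 on leaving out any but DKO-3 sample 2 (up to 0.3 and 0.158). PLA2G4A kept its call under each alternative in which it was tested.

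Cell cycle and DNA replication genes gave 1 rise and 1 fall among 32 tested, with a median of 0.10. The shares over all genes tested were 0.707% and 1.84%. CDK6, a G1 kinase that pairs with D cyclins, was at 492 and 486 against 151 and 125 (1.72 ± 0.25, adjusted p = 0.00106) and kept its call under each alternative in which it was tested. CCND2, a D cyclin, was at 16.2 and 20.2 against 62.3 and 60.2 (-1.18, adjusted p = 0.0126), a call lost on leaving out any 1 of the 4 normoxia samples (0.0748 to 0.149). The p53 target CDKN1A was at 368 and 379 against 696 and 595 (-0.76, adjusted p = 0.0847), in a list of 16 p53 pathway genes where none passed in limma and 5 had an unadjusted p under 0.05.

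Hypoxia-inducible genes were compared here in cells kept at 21% O2. Of 28 non-glycolytic HIF targets 2 were lower, against 1.84% of all genes tested, and 20 differences were below 0, against 49.2%. NDRG1, a differentiation-related hypoxia gene, was at 132 and 127 against 413 and 342 (-1.43 ± 0.20, adjusted p = 0.000892). DDIT4, an inhibitor of mTORC1, was at 867 and 953 against 1507 and 1361 (-0.65 ± 0.16, adjusted p = 0.0481), a call lost under 12 of 19 alternatives, among them on leaving out any 1 of the 4 normoxia samples (0.157 to 0.408). Among 27 glucose uptake and glycolysis genes, ENO2, an enolase, fell, at 82.9 and 91.0 against 338 and 250 (-1.58 ± 0.25, adjusted p = 0.00233). HK1, the first enzyme of glycolysis, rose, at 155 and 149 against 63.3 and 77.3 (0.96, adjusted p = 0.0467), a call lost on leaving out any 1 of the 4 normoxia samples (0.119 to 0.303). NDRG1 and ENO2 kept theirs under each alternative in which they were tested.

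Genes of iron handling, membrane transport and lipid synthesis gave further calls. HEPH, the ferroxidase that loads iron for export, was at 16.3 and 23.6 against 163 and 137 (-2.21 ± 0.25, adjusted p = 0.000125). The iron exporter SLC40A1 was at 32.3 and 17.9 against 85.6 and 60.1 (-1.12, adjusted p = 0.0336), a call lost on leaving out any 1 of the 4 normoxia samples (0.0599 to 0.422). These were the 2 calls among 15 iron genes, where 1.84% of all genes tested were called lower.

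The water and glycerol channel AQP3 was at 1227 and 982 against 4589 and 4226 (-1.99 ± 0.21, adjusted p = 6.87e-05), lost when all probe sets were averaged (0.145). UGT8, which makes galactosylceramide, was at 1123 and 1530 against 456 and 352 (1.67, adjusted p = 0.00105), and the drug exporter ABCB1 at 1008 and 1416 against 502 and 585 (1.12, adjusted p = 0.0267). ABCB1 lost its call on leaving out any 1 of the 4 normoxia samples (0.0582 to 0.399), and UGT8 kept it under each alternative in which it was tested. Of 20 sterol and fatty acid synthesis genes 17 differences were above 0 and 3 below, against 49.2% below 0 over all genes tested. Their median was 0.23. Over all genes tested 0.707% were called higher. SC5D, an enzyme of late cholesterol synthesis, was the 1 call, at 1380 and 1554 against 638 and 548 (1.29, adjusted p = 0.0018). Its call was lost without DKS-5 sample 2.

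The remaining calls in the lists were spread over vesicle, junction, death receptor, NF-kappaB and protease genes. Of 16 exocytosis and SH3BGRL family genes 3 fell and 1 rose, against 1.84% and 0.707% of all genes tested. RAB3B, a vesicle GTPase, fell (-1.05, adjusted p = 0.0481) with SH3BGRL and CADPS2, while ANXA1, a calcium-dependent membrane-binding protein, rose (0.91, adjusted p = 0.0161). The junction protein CLDN1 (-1.14, adjusted p = 0.0155) was the 1 call among 25 junction genes, the initiator caspase CASP10 (-1.18, adjusted p = 0.0161) among 22 death receptor and caspase genes, and the siderophore-binding LCN2 (-1.71, adjusted p = 0.00399) among 20 NF-kappaB genes, all lower in DKS-5. Among 15 genes of proteases and their inhibitors, TIMP3 fell (-1.41, adjusted p = 0.0115) and SERPINE2 rose (1.23, adjusted p = 0.0489). CLDN1, CASP10 and ANXA1 lost their calls on leaving out any 1 of the 4 normoxia samples (up to 0.187, 0.221 and 0.317). RAB3B, SERPINE2 and TIMP3 lost theirs on leaving out any normoxia sample but DKO-3 sample 2 (up to 0.415, 0.562 and 0.158), and LCN2 without DKS-5 sample 1 (0.0823) or DKO-3 sample 2 (0.074).

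Along the chromosomes, the calls were uneven. Chromosome 15 had 24 of 428 tested genes lower and none higher (5.61%, against 2.54% over all genes). From B2M to the end of its long arm, 269 of 309 tested genes (87.1%) had lower values in DKS-5, with a median of -0.37 on the log2 scale. Before B2M, 63 of 119 (52.9%) did, with a median of -0.03. All 24 calls lay from B2M on, a border chosen after the values were seen. Over the other chromosomes, 48.2% of tested genes had lower values, with a median of 0.01 and 210 calls lower. Of runs of 15 neighbouring tested genes outside chromosome 15, the lowest was on chromosome 6, from TNXB to HLA-DMA. Its median was -0.55 at normoxia and -0.62 in hypoxia. At normoxia 13 of its 15 genes were below 0, and 1, PSMB9 of the MHC class I list, was called lower. The highest run, on chromosome 7 from NIPSNAP2 to VKORC1L1, had a median of 0.39 and no call.

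In that stretch of chromosome 15 the median difference was -0.40 between DKS-5 sample 1 and DKO-3 sample 1, -0.38 between DKS-5 sample 1 and DKO-3 sample 2, -0.39 between DKS-5 sample 2 and DKO-3 sample 1 and -0.36 between both samples 2. In the hypoxia arrays it was -0.38, with 88.3% of genes lower. The median lay between -0.43 and -0.27 in all 19 alternatives. Its 24 lower calls numbered 10 without DKS-5 sample 1, 9 without DKS-5 sample 2, 9 without DKO-3 sample 1, 14 without DKO-3 sample 2 and 11 without the filter on dim genes.

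Among the genes of that stretch, the RNA-binding LARP6 (-2.13, adjusted p = 0.000128), the retinaldehyde dehydrogenase ALDH1A3 (-1.94, adjusted p = 0.000503), the netrin receptor NEO1 (-1.65, adjusted p = 0.00123) and the vesicle GTPase RAB8B (-1.51, adjusted p = 0.000996) fell. They were named after their values were seen, and each kept its call in the alternatives in which it was tested. B2M of the MHC class I list is the first gene of the stretch. On the X chromosome 14 of 394 tested genes were lower and 4 higher (4.57% called), but the median was -0.01.

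**Figure D4:**
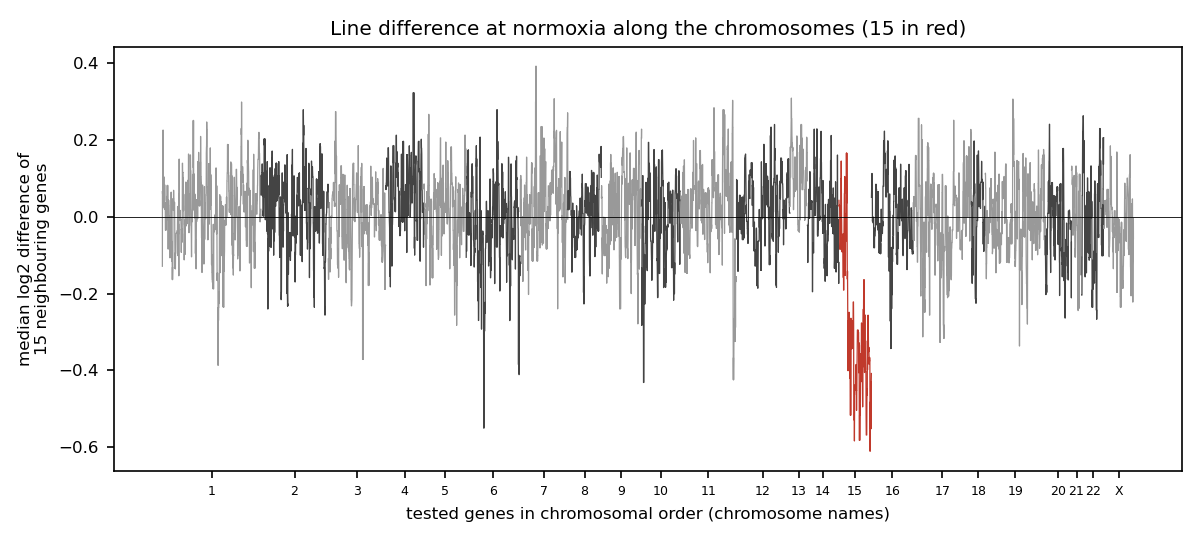
Median log2 difference, DKS-5 minus DKO-3 at normoxia, of 15 neighbouring tested genes, moved gene by gene along each chromosome (x axis, genes in order, with chromosome names); chromosome 15 is red and the others alternate in grey. The windows of chromosome 15 fall below 0 from B2M on and reach -0.61 between RCCD1 and SYNM, while the lowest and highest percentiles of all windows begin at -0.40 and 0.23.

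Most called differences were also present in the other 4 arrays. After 12 h at 1% O2, the lines differed at 557 genes (4.37%), 177 higher (1.39%) and 380 lower (2.98%) in DKS-5. Of the 324 genes called at normoxia, 247 were called there in the same direction, 71 higher and 176 lower, and none in the opposite one. The difference had the same sign at 319 of the 324. Their median absolute difference was 1.30 on the log2 scale at normoxia and 1.24 in hypoxia. In the hypoxia arrays the 3′ to 5′ signal ratio of ACTB, a measure of RNA integrity and of amplification, separated the lines. It was 54.8 and 25.6 in DKS-5 and 11.47 and 11.02 in DKO-3. That of GAPDH was 3.76 and 2.36 against 1.53 and 1.61. With the ACTB ratio as a covariate, 111 genes were called at both oxygen levels, against 247. That fit leaves fewer degrees of freedom, and beyond it the part of RNA quality was not tested. The number called at both oxygen levels was between 108 and 137 when any 1 normoxia sample was left out.

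A test of whether the line difference itself depended on oxygen passed at no gene in limma. The lowest adjusted p was 0.738, and 333 genes had an unadjusted p under 0.05, where 5% of the genes tested would be 637. The normoxia and hypoxia differences are given side by side for some of the called genes. NDRG1 differed by -1.43 at normoxia and 0.05 in hypoxia, ENO2 by -1.58 and -0.36, and MYH7B by 1.84 and 0.41. For SH3BGRL the pair was -4.53 and -5.27, for KRT20 -4.09 and -3.92, and for HHIP 3.64 and 3.45.

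**Figure D5:**
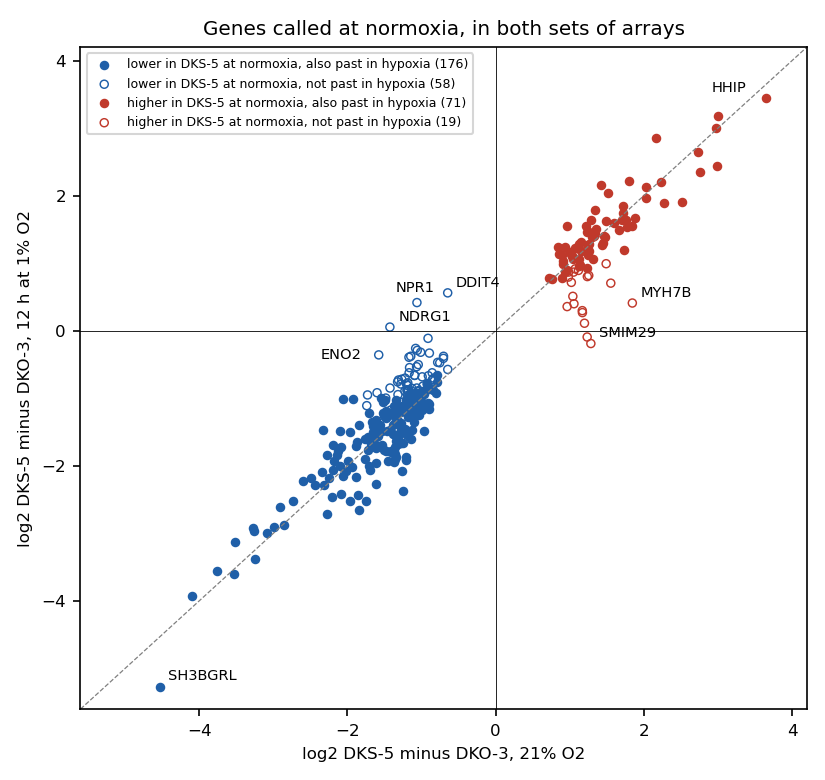
Log2 difference, DKS-5 minus DKO-3, at 21% O2 (x axis) and after 12 h at 1% O2 (y axis) for the 324 genes called at normoxia; filled points are also called in hypoxia in the same direction (176 lower, 71 higher) and open points are not (58 lower, 19 higher). The dashed line marks equal differences; DDIT4, NPR1, SMIM29, NDRG1 and MYH7B lie away from it.

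The arrays and cells were checked as follows. Deposited arrays had 2% trimmed means of 173.9 and 170.3 in DKS-5 and 183.8 and 162.2 in DKO-3 before scaling, and the correlation of log2 values was 0.989 between the DKS-5 samples, 0.983 between the DKO-3 samples and 0.973 to 0.977 between lines. The 3′ to 5′ signal ratio of ACTB, a measure of RNA integrity and of amplification, was 55.1 and 34.3 in DKS-5 and 49.0 and 14.9 in DKO-3, so DKO-3 sample 2 had the lowest. With that ratio as a covariate, 281 genes were called and 241 of the 324 kept their call. The epithelial markers EPCAM, CDH1, CDH17 and KRT18 were well above the filter in both lines, whereas LGALS4 and CEACAM5 were below the filter. Of the 9 epithelial markers tested 3 were called, against 2.54% of all genes tested. VIL1 was higher in DKS-5 (1.77), and KRT19 (-1.04) and KRT20 (-4.09) were lower. Of 18 markers of fibroblasts, endothelium, leukocytes and erythroid cells on the array, 2 exceeded the filter and neither was called. Their summed signal was 130 and 154 in DKS-5 and 157 and 87.7 in DKO-3, and that of 11 epithelial markers was 18563 to 21506.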

How the data were processed

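Total RNA (Qiagen RNeasy, NuGEN Ovation amplification, per the labels' protocols) was measured on 8 arrays. The authors deposited a linear intensity (signal) for each of 54675 probe sets; the submitters' processing notes name MAS5. Its version and scaling target are not given in the sources used here. No detection call entered. Probe sets were named from the platform annotation: 41091 had 1 gene, 1801 several and 11721 none; 62 control probe sets were left out. Arrays were scaled to a 2% trimmed mean of 172.1 (factors undo a 1.52-fold range), and log2(signal + 16) was taken. The brightest probe set stood for a gene, and genes under the 40th percentile of mean signal (13.8) were left out. With limma 3.58.1 (R 4.3.3), 4 group means were fitted over all 8 arrays (4 residual and 11.3 prior degrees of freedom) with eBayes and an intensity trend; all p-values are two-sided and adjusted by Benjamini-Hochberg over all genes tested, at 0.05. The fit was run on simulated data, where the limits to be met were rewritten after a first outcome had been seen. The text names the 15 largest rises and falls and up to 4 genes of smallest p in each list; others are said to be chosen after their values were seen. Comparison, lists, regions and tests were chosen with earlier results of these data known. Alternatives changed the added constant, scaling, filter, probe-set rule, samples, trend, replicate block and an ACTB covariate. One gene, K-ras itself, is not reported here. The number of arrays limits the precision.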

Additional observations from a re-analysis of the deposited data

Results flagged for a closer look

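In 5 called genes the difference after 12 h at 1% O2 had the sign opposite to that at normoxia. In 2 of them the lines overlapped in hypoxia, while in the other 3, given here, both DKS-5 samples lay on one side of DKO-3 at normoxia and on the other side in hypoxia. NPR1, a natriuretic peptide receptor, differed by -1.06 at normoxia and 0.42 in hypoxia on the log2 scale; its signals were near the floor, at 4.90 and 1.82 in DKS-5 and 20.2 and 28.8 in DKO-3 at normoxia. DDIT4, the mTORC1 inhibitor induced by hypoxia, differed by -0.65 and 0.56, and SMIM29, a small membrane protein, by 1.28 and -0.19. The change of the line difference with oxygen was tested for each and did not pass (interaction in limma, adjusted p = 0.9995 for NPR1, 0.738 for DDIT4 and 0.9995 for SMIM29).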

How the results depend on the processing

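Each called gene that an alternative tested kept its direction. That could not be otherwise where a hypoxia array was left out, the trend was dropped or only the normoxia arrays were fitted. Nor could it where 1 normoxia array was left out, as the lines did not overlap at the called genes. No gene passed for a change of the line difference with oxygen in any alternative that tested it. Against 324 calls (90 higher, 234 lower), there were 144 (40 higher, 104 lower) without the filter on dim genes. Leaving out 1 of the 8 arrays at a time gave 119 to 441 calls, 24 to 117 higher and 93 to 324 lower; with 1 sample left in a group, that sample is assumed to vary like the others. Calls shared with hypoxia, 247, were 116 without the filter, 111 with the ACTB ratio as a covariate and 108 to 256 with 1 array left out. Calls numbered 278 with a constant of 1, 310 with 64, 264 without scaling, 303 after quantile normalization, 244 with a stricter filter, 266 over mean probe sets, 446 with only the 4 normoxia arrays and 309 without the trend. The share of lower calls stayed between 67.8% and 79.8%. A replicate block gave 455 calls and lost none of the 324; the pairing is by number only, and replicate differences of the lines correlated at 0.209 over genes at normoxia (-0.087 to 0.330 over the pairs of groups). The covariate fit and the array omissions leave fewer degrees of freedom; beyond that, the cause was not tested. Depth of signal limits 45 lower and 6 higher genes whose dimmer line is under the filter level.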

Other observations

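The genes below were chosen after their values were seen and lie outside the lists. They were picked from the called genes, so their being called, and their directions, follow from that choice. Some encode growth factors or their receptors. FGF20 was at 106 and 151 in DKS-5 and 16.9 and 39.9 in DKO-3 (1.74 on the log2 scale, adjusted p = 0.00279), FGF2 at 101 and 83.8 against 36.2 and 20.5 (1.31, adjusted p = 0.0202), and MET, the hepatocyte growth factor receptor, at 2193 and 2978 against 1213 and 1265 (1.04, adjusted p = 0.00703). FGF18 was at 40.1 and 49.1 against 124 and 138 (-1.28, adjusted p = 0.0316), and the receptor FGFR3 at 23.2 and 29.7 against 105 and 67.4 (-1.25, adjusted p = 0.0224). Of 5 FGF18 probe sets above the filter, 3 had the same sign and none passed in a fit over all probe sets. Among kinases that ERK or p38 phosphorylate, MAPKAPK3 rose (1.48, adjusted p = 0.00804) and so did RPS6KA4 (1.23, adjusted p = 0.0142). RPS6KA4 was dim, at 29.2 and 33.2 in DKS-5 and at 3.92 and 4.16, below the filter level, in DKO-3. In contrast, RPS6KA2 fell (-1.12, adjusted p = 0.0404) along with RPS6KA6. Of 2 RPS6KA2 probe sets above the filter neither passed in a fit over all probe sets, and the other differed by -0.29. Other than RPS6KA6, each of these 8 genes lost its call without at least 1 of the normoxia samples, with adjusted p up to 0.0607 for FGF20, 0.222 for FGF2, 0.219 for MET, 0.448 for FGF18, 0.341 for FGFR3, 0.129 for MAPKAPK3, 0.145 for RPS6KA4 and 0.395 for RPS6KA2 over the alternatives.

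Other single genes were picked from the called ones in the same way, among them some lower ones with roles in antiviral defence or antigen presentation. MR1, which presents vitamin B metabolites to T cells, was at 45.8 and 38.2 against 143 and 213 (-1.72, adjusted p = 0.00115), and kept its call in the alternatives in which it was tested. The double-stranded RNA receptor TLR3 was at 88.1 and 131 against 291 and 306 (-1.34, adjusted p = 0.0158), APOL6 at 110 and 121 against 317 and 328 (-1.36, adjusted p = 0.00534), and the antiviral RSAD2 at 17.4 and 15.6 against 58.0 and 62.5 (-1.23, adjusted p = 0.0123). Their adjusted p reached 0.234, 0.0823 and 0.131 over the alternatives, which included leaving out each normoxia sample. Among transcription factors, STAT5A was at 38.2 and 67.0 against 278 and 252 (-2.06, adjusted p = 0.000267) and kept its call. The ETS factor ETS1 was at 21.3 and 13.3 against 61.3 and 75.3 (-1.35, adjusted p = 0.0126, up to 0.181), in the direction opposite to ETV1. TEAD2, a partner of YAP, was at 286 and 349 against 109 and 95.8 (1.49, adjusted p = 0.00354, up to 0.128).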
